A study of Mus musculus with 17 samples.

Results

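The lower-numbered microRNA genes, together with the let-7 genes, were followed through single 2-cell mouse embryos. Members were the array rows that carried exactly 1 gene symbol, where that symbol began with Mirlet7 or with Mir and a number from 1 to 399. This rule, which used no measured value, found 207 rows of 207 genes among 21780 rows with 1 symbol and 28815 rows in all. Another 17 rows joined a microRNA gene of this range with other symbols and were not used here. The clustered genes of the miR-290 family, which are abundant in pluripotent cells, had no row with a single symbol and were not analysed here.

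Embryos of the inbred strain 129SVE came from natural matings of untreated wild-type females with wild-type males that had been injected every day for 6 weeks. The PJ34 group held 10 embryos of 3 sires given PJ34, a drug that blocks PARP1 and PARP2, the main enzymes that make poly(ADP-ribose): 4 embryos of sire MTM11, 4 of MTM13 and 2 of MTM14. The control group held 7 embryos of 3 sires that the treatment protocol describes as injected with saline, although a label for each father calls him untreated: 1 embryo of sire A, 3 of B and 3 of D. Each embryo is named by its sire and its own number. Embryos of 1 sire share a father, the ages of the animals are not given in the labels, and p-values over embryos measure the spread between these embryos.

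MicroRNA genes are transcribed as long primary transcripts, from which DROSHA and DGCR8 cut a hairpin and DICER1 then releases a short mature strand. The mature strand sits in an Argonaute protein and finds its messenger RNA targets mainly through its seed, bases 2 to 8. In mouse oocytes and early cleavage embryos the microRNA pathway is known to have little activity on messenger RNA, and the embryonic miR-290 and miR-302 families become abundant later, in pluripotent cells. The array was designed for whole transcripts. Its rows for microRNA genes therefore cannot tell primary transcript, hairpin and mature strand apart.

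Of the 207 genes, 189 matched a mature sequence by gene ID in RefSeq (GRCm38.p6). The sequences shown here belong to the rows on which the results turn, with the seed in capitals. The first group shares the let-7 seed and belongs to 2 neighbouring genes on chromosome 13, let-7f-1 at chr13:48537889-48537910 and let-7d at chr13:48536078-48536099, both on the minus strand.
let-7f-5p: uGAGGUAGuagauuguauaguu
let-7d-5p: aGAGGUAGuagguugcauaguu

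The next strands come from the miR-302 cluster, the 4 miR-302 genes and Mir367, which lie together on the plus strand of chromosome 3 and were high together in 1 embryo. The seed of miR-367 was shared with miR-92b, a member of the miR-17-92 family that was among the brightest rows.
miR-302b-3p: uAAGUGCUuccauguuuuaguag
miR-302d-3p: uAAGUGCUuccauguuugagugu
miR-302c-3p: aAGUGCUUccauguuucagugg
miR-302a-5p: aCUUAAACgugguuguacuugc
miR-367-3p: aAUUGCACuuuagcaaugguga
miR-92b-3p: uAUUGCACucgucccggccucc

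The miR-17-92 genes of chromosome 14 are shown because neighbours of 1 transcript were high in different embryos. miR-17 and miR-20a have the same seed.
miR-17-5p: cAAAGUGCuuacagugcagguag
miR-20a-5p: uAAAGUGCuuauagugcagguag
miR-18a-5p: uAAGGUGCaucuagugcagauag
miR-19b-3p: uGUGCAAAuccaugcaaaacuga

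The last group holds the other genes with the largest excess of a single embryo over the rest, and the row with the highest level.
miR-202-3p: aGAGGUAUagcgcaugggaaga
miR-128-3p: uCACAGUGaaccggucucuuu
miR-186-5p: cAAAGAAUucuccuuuugggcu
miR-28a-5p: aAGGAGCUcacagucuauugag
miR-346-5p: uGUCUGCCcgagugccugccucu

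Seeds were shared by several genes of the set. The let-7 seed GAGGUAG occurred in 9 of the genes with a sequence, AAAGUGC and AUUGCAC in 6 each, and ACAUUCA, the seed of the miR-181 genes, in 6.

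The median of an array ran from 6.12 to 6.23 log2 units, and pairs of embryos correlated at 0.941 to 0.959 over rows with 1 symbol. Markers of the 2-cell embryo and of the oocyte were bright, with row means of 10.4 for Zfp352, 10.5 for Tcstv3 and 11.9 for Bmp15, whereas Gm5039, another 2-cell marker, had 5.18. All 5 cumulus cell markers and both measured oviduct markers lay below 6.25, the 95th percentile of the olfactory receptor rows described next. Of 3 measured blood markers 1, Slc4a1, lay above it at 6.72. Other planned markers had no row in these lists: Hba-a1 and Hbb-b1 of blood, Ovgp1 of the oviduct, and Zscan4c, Zscan4d, Zscan4f and Tcstv1 of the 2-cell embryo. The mean level of each list overlapped between the groups. For the 4 rows of the 2-cell list it was 8.40 to 9.37 in controls and 7.03 to 9.35 in PJ34 embryos. Usp17lb, a gene of this list, differed by -1.11, PJ34 minus control (p = 0.0304, adjusted p = 0.843 by limma). Other markers with an unadjusted p below 0.05 were Bmp15 at 0.29 (limma p = 0.00386, adjusted p = 0.814) and the cumulus gene Kitl at 0.16 (limma p = 0.0132, adjusted p = 0.823). Slc4a1 was lower, at -0.16 (limma p = 0.0291, adjusted p = 0.843). The mean of the 5 cumulus rows was 4.96 to 5.17 in controls and 4.94 to 5.25 in PJ34 embryos. For the blood rows it was 5.44 to 5.63 and 5.42 to 6.08.

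Most microRNA rows lay in the lower range of the array. Their means over 17 embryos ran from 2.94 to 9.41 log2 units with a median of 4.76, against a median of 6.25 for all rows with 1 symbol. Olfactory receptor genes, best known from sensory neurons of the nose, served as the mark of the lower range, although single embryos held high values in some of their rows too. The paper reports early expression of individual olfactory receptor genes in embryos of its mutant sires and, to some extent, of PJ34 sires. The 1035 olfactory receptor rows had a median of 4.51 and a 95th percentile of 6.25. Of the microRNA rows, 48 (23.2%) lay above that percentile, compared with 50.2% of all rows with 1 symbol. With levels and percentile taken from control embryos alone the count was 48, and from PJ34 embryos alone 47. At the other end, 123 microRNA rows (59.4%) lay below the lower quartile of all rows. The 91 higher-numbered microRNA genes, above 399, had a median of 5.23, with 29 rows (31.9%) above the olfactory percentile. Levels of different rows come from different probes, so these counts describe brightness and not abundance.

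**Figure D1:**
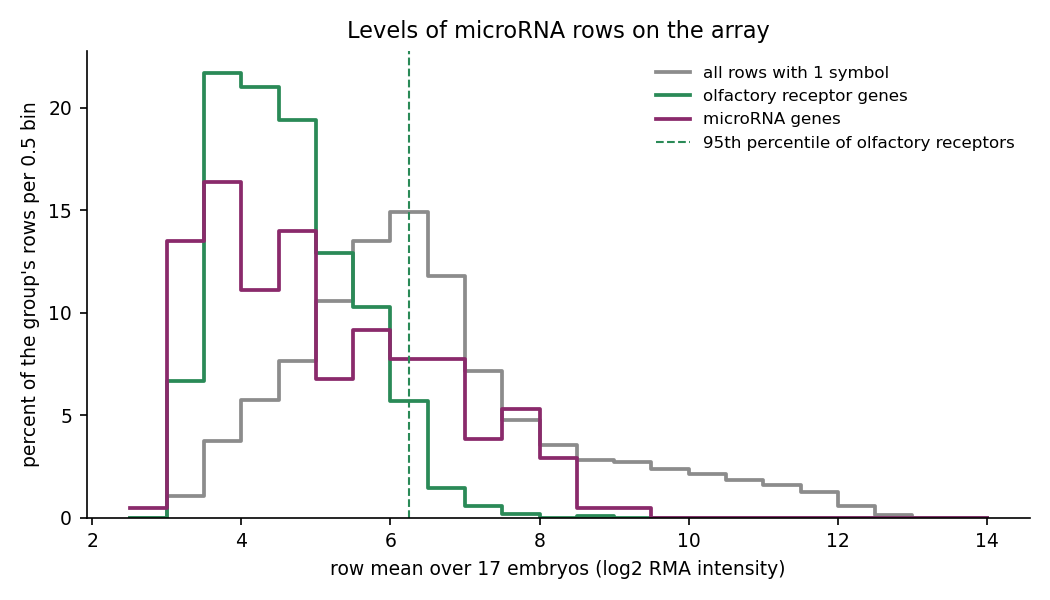
Distribution of row means over 17 embryos (x axis, log2 RMA intensity) as the percent of rows per bin (y axis) for 207 microRNA rows, 1035 olfactory receptor rows and all 21780 rows with 1 symbol. The microRNA rows spread from the lowest values of the array to 9.41, with 48 of them right of the dashed line at 6.25, the 95th percentile of olfactory receptors.

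The 10 brightest microRNA rows were Mir346, Mir328, Mir185, Mir181d, Mir194-2, Mir320, Mir92b, Mir139, Mir383 and Mir341, from 9.41 down to 7.92. Mir346 had 9.27, 9.48 and 9.60 (lowest, median and highest) in the 7 control embryos and 9.17, 9.38 and 9.66 in the 10 PJ34 embryos. Mir328, next in level at 8.79 ± 0.16 (SD, n = 17), had 8.59, 8.92 and 9.01 in controls and 8.52, 8.74 and 8.94 in PJ34 embryos. Both rows were bright in every embryo and overlapped between the groups. The neighbours below them were close: Mir185 at 8.29 ± 0.17, Mir181d at 8.25 ± 0.13 and Mir194-2 at 8.17 ± 0.12 (SD, n = 17) differed by less than the spread over embryos. The dimmest row, Mir297-1, had 2.94 ± 0.05.

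Row level followed the base composition of the hairpin. Over the 183 members with a hairpin sequence, the row mean correlated with its GC content at Pearson r = 0.78 and Spearman rho = 0.79. All points share the same 17 arrays and amplification, and the genes are not independent replicates. In the 61 hairpins with the lowest GC content (28.4% to 43.9%) the median level was 3.67 and 1 row lay above the olfactory percentile. In the middle 61 (44.1% to 51.5%) the median was 4.85 with 6 rows above. In the 61 with the highest GC content (52.1% to 69.2%) it was 6.26 with 31 rows above. Mir346 had a GC content of 65.3% and Mir92b of 67.5%. Hairpin length moved much less with the level, with rho = 0.19. The part of base composition in the level was not tested.

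**Figure D2:**
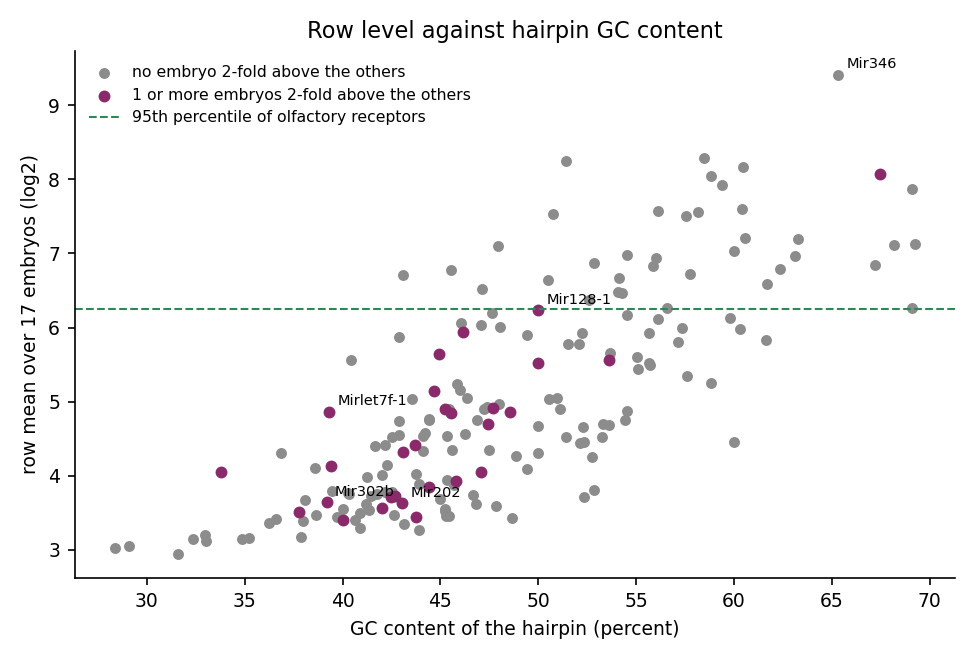
Row mean over 17 embryos (y axis, log2) against hairpin GC content (x axis, percent) for 183 microRNA genes, with rows that held a value at least 2-fold above the other embryos in purple. The level rises with GC content from below 4 to 9.41 for Mir346, and nearly all purple points lie below the dashed olfactory percentile of 6.25.

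Some members encode the same mature strand from different loci, each with a row of its own probes. For 20 pairs of genes with an identical mature sequence, the row means differed by 0.02 to 2.61 log2 units with a median of 0.86, and 9 pairs lay more than 1 unit apart. The rows of a pair have different probes, so these differences describe brightness, and a difference in abundance between the loci was not tested. Over the 17 embryos the members of a pair correlated at -0.14 to 0.51, with a median r of 0.14. The strand let-7f-5p is encoded by both Mirlet7f-1 and Mirlet7f-2, and the first row ran from 3.55 to 8.90 while the second stayed between 3.64 and 4.02.

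By family, the 5 rows of the miR-302 cluster, the 6 rows of heart and skeletal muscle microRNAs and the 5 rows of the Hox clusters all lay below the olfactory percentile. In the let-7 and miR-98 family, which restrains growth-promoting genes in differentiated cells, 2 of 10 rows lay above it, Mirlet7e at 6.79 and Mirlet7i at 6.67. In miR-17-92 and its paralogs, known for promoting proliferation, 2 of 14 rows did: Mir92b at 8.07 and Mir25 at 6.96. The sperm and testis microRNAs lay below it, with row means of 6.201 for Mir34b and 3.76 for Mir34c. Mir34c, known as a sperm-borne microRNA, had 3.68, 3.75 and 4.09 (lowest, median and highest) in controls and 3.49, 3.76 and 3.89 in PJ34 embryos. Of 12 rows of nerve cell microRNAs 3 lay above, of 4 blood cell rows 2, of 4 liver rows 2, and of 20 rows of the imprinted Dlk1-Dio3 region 3. These counts are descriptions, and the part of hairpin GC content in them was not tested.

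Against this flat background, single embryos held very high values in some rows. A value was counted as high where it lay at least 2-fold (1 log2 unit) above the median of the other 16 embryos in its row. In control embryos 22 of 1449 microRNA values were high (1.518%), and in PJ34 embryos 31 of 2070 (1.498%). Over all rows with 1 symbol the same count gave 2.40% in controls and 2.45% in PJ34 embryos, and over olfactory receptor rows 0.235% and 0.483%. A control embryo held 3.14 ± 1.95 high values (SD, n = 7) with a range of 0 to 6, and a PJ34 embryo 3.10 ± 2.51 (SD, n = 10) with a range of 1 to 8. The groups overlapped almost completely. No microRNA value lay 2-fold or more below the other embryos, whereas 1.38% of the values of all rows did. However, 59.4% of the microRNA rows lay below the lower quartile of all rows, against 21.5% of rows with 1 symbol. A row near the array's lowest values can hardly fall 2-fold, so these shares cannot show a trait of microRNA genes.

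The 53 high values fell in 31 rows, and the other 176 rows had none. Of these rows, 11 were high in control embryos alone, 14 in PJ34 embryos alone and 6 in both groups. In 20 rows a single embryo was high, in 5 rows 2 embryos, and in 6 rows 3 or more, namely Mir101b, Mir128-1, Mir186, Mir367, Mirlet7d and Mirlet7f-1. Of the 22 high values in controls 9 were at least 8-fold above the others, and of the 31 in PJ34 embryos 13. The rows themselves were mostly dim, since 29 of the 31 had a mean under the olfactory percentile, but 36 of the 53 values lay above it. The 28 of these rows with a hairpin had a median GC content of 44.6%, against 47.6% in rows with no high value. Of the 10 brightest rows, 1 held a high value, Mir92b, with 9.43 in MTM11-1 against a median of 7.97 in the others.

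**Figure D3:**
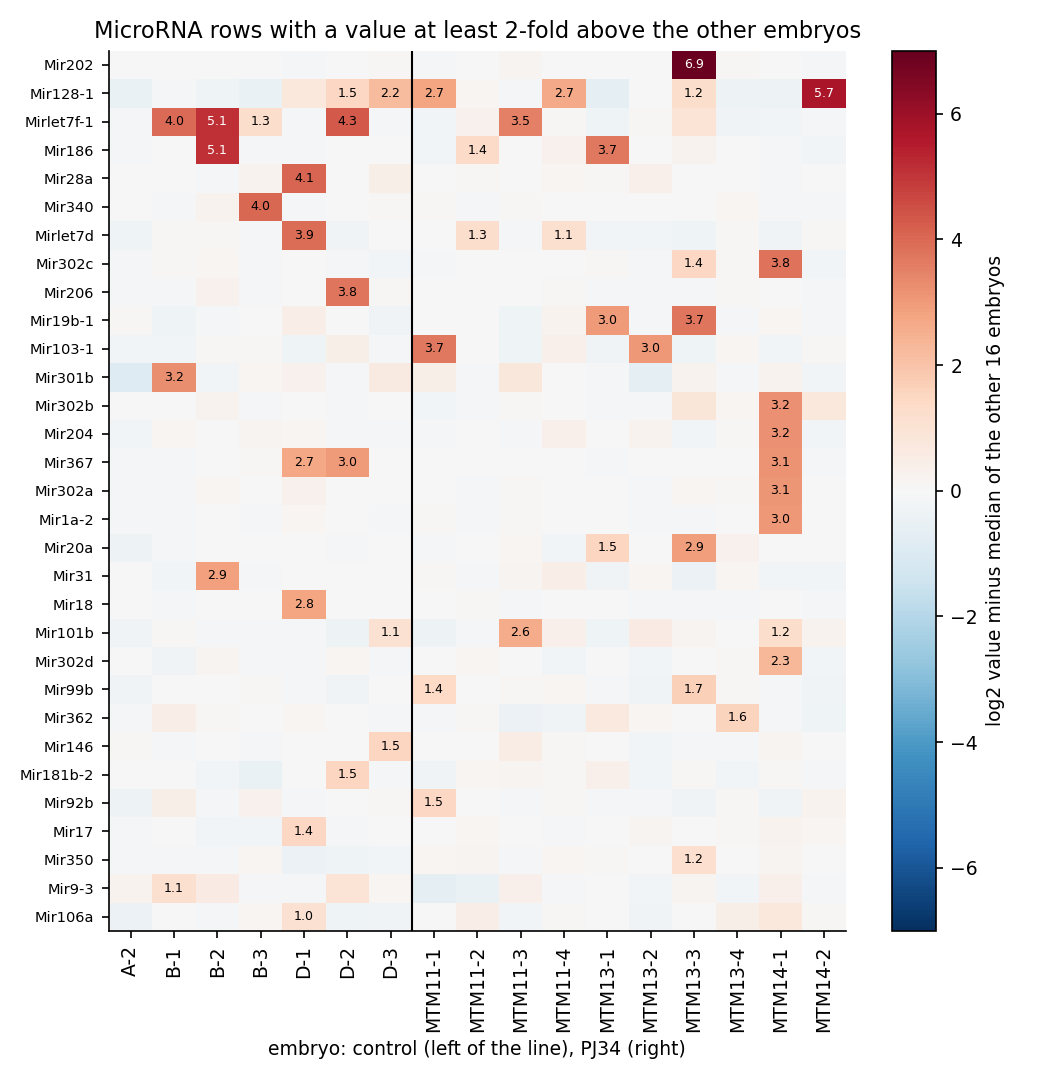
Log2 value minus the median of the other 16 embryos (colour, number printed where it is at least 1) for the 31 microRNA rows with a high value (y axis) in each embryo (x axis, 7 controls left of the line and 10 PJ34 embryos right of it). High values occur on both sides. In 20 of the 31 rows a single embryo is high, and MTM14-1 holds the stack of rows of the miR-302 cluster.

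The largest excess over the other embryos was that of Mir202, a microRNA known from the gonads, whose mature strand lies at chr7:139957695-139957716. It had 10.1 in MTM13-3, and no other embryo exceeded 3.39, an excess of 6.89 log2 units over the median of the others. That median, 3.21, lay near the lowest values of the array, so the excess is not a measured fold in RNA. Mir128-1, a nerve cell microRNA inside the gene R3hdm1, had 11.1 in MTM14-2, 8.11 in MTM11-1, 8.04 in MTM11-4 and 6.59 in MTM13-3. In controls it reached 7.57 in D-3 and 6.82 in D-2, while the median of the other embryos was 5.37. Its group difference was 0.66 (95% interval -0.99 to 2.31). The host row R3hdm1 varied little, with 10.3 ± 0.14 (SD, n = 17), and correlated with Mir128-1 at r = 0.23.

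Mir186 had 8.58 in control embryo B-2, 7.18 in MTM13-1 and 4.82 in MTM11-2. Its median was 3.44 in controls and 3.50 in PJ34 embryos. Mir28a had 9.19 in control embryo D-1, and the other 16 embryos had at most 5.48. Both rows were therefore high in a control embryo and showed group differences near or below 0, of -0.14 (-1.67 to 1.38) for Mir186 and -0.61 (-1.57 to 0.34) for Mir28a.

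Among the let-7 rows, Mirlet7f-1 was the most variable. In controls it had 3.69 in A-2, 7.73 in B-1, 8.90 in B-2, 5.03 in B-3, 3.67 in D-1, 8.09 in D-2 and 3.72 in D-3. In PJ34 embryos it had a lowest value of 3.55, a median of 3.76 and a highest value of 7.31 in MTM11-3. High values thus occurred in 4 of 7 control embryos, from 2 sires, and in 1 of 10 PJ34 embryos. Another PJ34 embryo, MTM13-3, had 4.71, close to the threshold but below it. The fitted difference, PJ34 minus control, was -1.65 (95% interval -3.34 to 0.05; p = 0.0557, adjusted p = 0.846 by limma). Without sire B it was -0.61.

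Mirlet7d, which lies beside Mirlet7f-1, was high in other embryos: 8.76 in control D-1, 6.09 in MTM11-2 and 5.93 in MTM11-4. No embryo was high in both rows. Mirlet7a-1, the third gene of this group, ran from 4.26 to 4.96. The median r over the 3 pairs of neighbours was -0.12 (n = 17 embryos). The remaining let-7 rows were flat. Mirlet7g had 4.33 to 4.93 in controls and 4.44 to 5.04 in PJ34 embryos, and Mirlet7i had 6.48 to 6.75 and 6.39 to 6.93.

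The rows of the miR-302 cluster were the only group of neighbours in which every row was high in the same embryo. In MTM14-1 the values were 7.56 for Mir302c, 6.59 for Mir302b, 6.44 for Mir302a, 6.34 for Mir302d and 6.34 for Mir367. The excess over the other embryos ran from 2.32 for Mir302d to 3.81 for Mir302c. In controls the highest value of Mir302a was 3.66, of Mir302b 3.62, of Mir302c 3.89 and of Mir302d 4.22. MTM14-2, the other embryo of this sire, had 3.41, 4.12, 3.57 and 3.82 in these rows. Mir367 was also high in control embryos D-1 with 5.95 and D-2 with 6.22, in which no miR-302 row was high, and Mir302c reached 5.17 in MTM13-3.

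Averaged over the 5 rows, an embryo had 3.47 to 4.14 in controls and 3.43 to 4.02 in the 9 PJ34 embryos other than MTM14-1, which had 6.65. The mean difference between the groups over these rows was therefore decided by 1 embryo, at 0.20 with MTM14-1 and -0.11 without it. The median r over pairs of the 5 rows was 0.91 with MTM14-1 and 0.18 without it. MTM14-1 was also high in Mir204, with 7.84, in the muscle gene Mir1a-2, with 6.19, and in Mir101b, with 5.62. Another muscle gene, Mir206, was high in control embryo D-2, with 7.24.

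In miR-17-92, whose genes are cut from 1 primary transcript, 2 patterns occurred. Control embryo D-1 was high in Mir17 with 6.24 and in Mir18 with 6.05, where no other embryo exceeded 5.05 and 3.39. MTM13-3 and MTM13-1 were high in Mir19b-1, with 7.77 and 7.01, and in Mir20a, with 6.62 and 5.20. The other embryos had at most 4.49 in Mir19b-1 and 3.98 in Mir20a. Mir19a, which lies between these genes, ran from 3.15 to 3.35 in all 17 embryos. Among the paralogs, Mir106a had 5.25 in D-1, and Mir25, Mir93 and Mir106b held no high value.

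**Figure D4:**
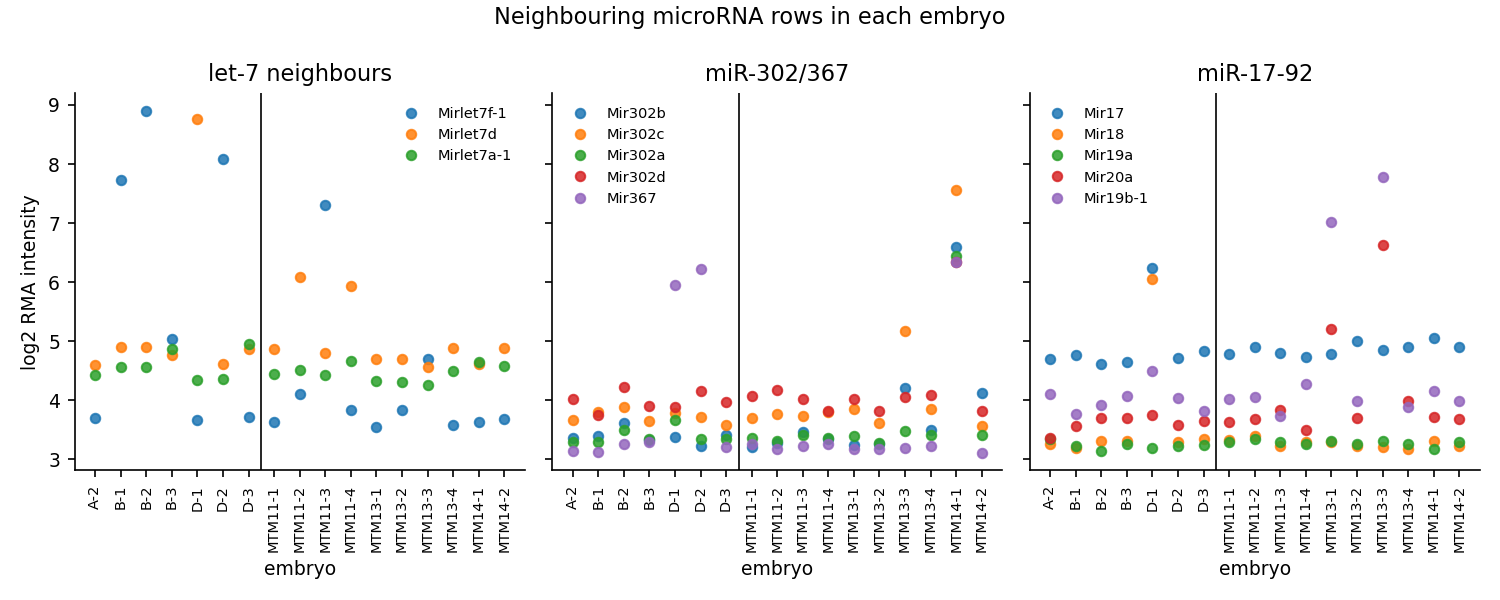
Log2 RMA intensity (y axis) in each embryo (x axis, 7 controls left of the line and 10 PJ34 embryos right of it) for 3 groups of neighbouring microRNA genes, 1 colour per row. Mirlet7f-1 and Mirlet7d are high in different embryos, all 5 rows of the miR-302 cluster are high in MTM14-1, and miR-17-92 splits between D-1 and the embryos MTM13-1 and MTM13-3.

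Over all members, 100 of the 207 genes lay within 10 kb of another member, in 36 groups of neighbours. The 179 pairs of rows within such a group had a median r of 0.11 over the 17 embryos, and the 21142 pairs in different groups a median r of 0.06. Groups with the highest median r after the miR-302 cluster were Mir23a, Mir27a and Mir24-2 with 0.56, and Mir15a with Mir16-1 and Mir181c with Mir181d, both at 0.53, none of which held a high value. Counting neighbours that were high in the same embryo once left 21 events in controls and 25 in PJ34 embryos.

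No microRNA row passed the test between PJ34 and control embryos. The limma test over all 21780 rows called 0 of the 207 members at an adjusted p below 0.1, with a lowest adjusted p of 0.814, and it called 0% of all rows. A plain analysis of variance also called 0 members. At an unadjusted p below 0.05, 4 members were higher in PJ34 embryos, where the share of all rows was 1.96%, and 4 were lower, where it was 3.93%. Together these were 3.86% of the members. The median difference was -0.02 over the members and -0.02 over all rows, and 58.0% of the members and 56.4% of all rows were lower in PJ34 embryos. No member had groups without overlap, and 0.0138% of all rows did.

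The 95% interval of the difference lay within 1 log2 unit of 0 for 186 of the 207 rows and within 0.5 for 175. However, 159 rows lay at or below the olfactory percentile, where a narrow interval describes the row's signal and does not bound a change of the gene. Of the 48 rows above it, all 48 intervals lay within 1 unit and 44 within 0.5. For Mirlet7f-1 and other rows with sporadic high values it was far wider, with bounds as low as -3.34 and as high as 2.35, so changes of several fold were not detectable there. Each value is of a whole embryo, so fewer cells and less RNA per cell cannot be told apart.

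The rows with the lowest p are named although none passed. Mir139, a row inside the phosphodiesterase gene Pde2a, had 7.70, 7.97 and 8.13 (lowest, median and highest) in controls and 8.04, 8.09 and 8.29 in PJ34 embryos. Its difference was 0.18 (95% interval 0.06 to 0.30; p = 0.00552, adjusted p = 0.814), and 10 of 10 PJ34 embryos lay above the control mean. Mir216a, a pancreatic microRNA, had 4.42, 4.67 and 4.79 in controls and 4.64, 4.86 and 5.14 in PJ34 embryos, a difference of 0.22 (0.07 to 0.38). The others on this side were Mir30a at 0.15, Mir350 at 0.31 and Mir297b at 0.22. Mir350 dropped to 0.20 without MTM13-3, which had 4.95, and to 0.19 without sire D, and Mir297b to 0.15 without MTM13-2.

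On the lower side, Mir155, known from activated immune cells, had 6.42, 7.16 and 7.27 in controls and 6.32, 6.49 and 7.07 in PJ34 embryos. Its difference was -0.38 (-0.68 to -0.08; adjusted p = 0.843), and the groups overlapped. Mir9-3, a nerve cell microRNA, had 4.64, 4.93 and 5.82 in controls and 4.14, 4.66 and 5.07 in PJ34 embryos, a difference of -0.44 (-0.82 to -0.07). Mir181a-2 differed by -0.27, or -0.11 without sire D. Mir337 differed by -0.16, or -0.04 without sire B and -0.09 over sire means. For each of these rows the adjusted p was 0.843 or higher.

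**Figure D5:**
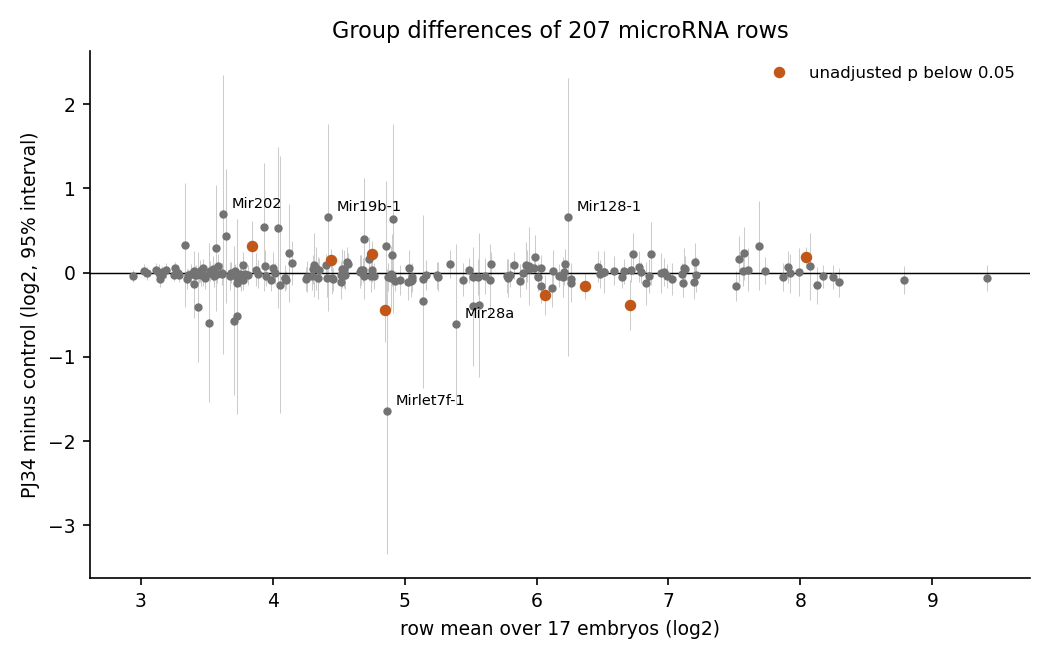
PJ34 minus control difference with its 95% interval (y axis, log2) against the row mean over 17 embryos (x axis, log2) for 207 microRNA rows, with the 8 rows at an unadjusted p below 0.05 in orange. Most rows lie close to 0 with short intervals, and the long intervals belong to rows with high values in single embryos, such as Mirlet7f-1 at -1.65.

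Each PJ34 family was also set against the 7 control embryos, in comparisons that share those controls. For MTM11, 0 members and 0.00459% of all rows were called, and 9 members had an unadjusted p below 0.05 (4.35%, against 5.25% of all rows). Mir30e had the lowest p there, with a difference of 0.47 (0.22 to 0.73; adjusted p = 0.634). For MTM13, 0 members and 0% of all rows were called, and 8 members had an unadjusted p below 0.05 (3.86%, against 4.96%). Mir20a and Mir19b-1 were higher by 1.26 (0.44 to 2.08) and 1.64 (0.39 to 2.88) through the embryos MTM13-1 and MTM13-3.

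For MTM14, 0 members and 0.0551% of all rows were called, and 8 members had an unadjusted p below 0.05 (3.86%, against 5.53%). Of these, 6 were rows in which MTM14-1 was high: the 4 miR-302 genes, Mir204 and Mir1a-2. Mir302b was higher by 1.97 (1.10 to 2.84; adjusted p = 0.228). With MTM14-1 as the lone embryo of the family, assumed to vary like the other groups, these 6 members and 0.684% of all rows were called. The adjusted p ran from 5.02e-10 for Mir1a-2 to 4.20e-05 for Mir302c. With MTM14-2 alone 1 member and 0.367% of all rows were called, the member being Mir128-1 at 5.23 with an adjusted p of 0.0994. Between the 3 PJ34 families, 0 members differed, with a lowest adjusted p of 0.530, while 0.0138% of all rows were called. At an unadjusted p below 0.05 there were 11 members (5.31%, against 4.91% of all rows). Without MTM14-2 this test called 6 members and 0.505% of all rows, and without MTM14-1 it called 0 members and 0.257%.

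Intronic microRNAs were compared with their host genes. Of the members, 91 lay inside another gene on the same strand, and 65 pairs of 64 members had a host row on the array. Host rows ran from 3.14 to 12.0 log2 units, and the host was brighter than the microRNA row in 46 pairs. In 30 pairs the host lay above the olfactory percentile and the microRNA below it, as for Mir103-1 at 4.91 inside Pank3, a pantothenate kinase gene with the highest host level of 12.0. Over pairs, host and microRNA levels had rho = -0.06.

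Over the 17 embryos the median r of a pair was 0.04, and 35 of 65 pairs had a positive r. A permutation test (100000 resamples, two-sided, adjusted over 65 pairs) called 1 pair by Pearson's r and none by Spearman's rho, with 4 and 3 pairs at an unadjusted p below 0.05. The called pair was Mir15a and its long noncoding host Dleu2, at r = -0.74 (permutation p = 0.00136, adjusted 0.0884) and rho = -0.62 (permutation p = 0.00889, adjusted 0.578). Within controls r was -0.81 and within PJ34 embryos -0.52. Without the 2 embryos farthest from the median of Dleu2, r was -0.38. Dropping these embryos also narrows the range of the host, so this cannot show whether the pair rests on them. The Dleu2 row lay at 3.14, near the array's lowest values, and after centring each array on its median no pair was called. Mir16-1, which also lies in Dleu2, had r = -0.18 and rho = -0.46 with it (permutation p = 0.479 and 0.0623).

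The next pairs did not pass: Mir188 with Clcn5 at r = -0.56 and rho = -0.54 (permutation p = 0.0202 and 0.0283), Mir34b with Hoatz at 0.53 and 0.45 (permutation p = 0.0279 and 0.0697) and Mir103-2 with Pank2 at 0.52 and 0.41 (permutation p = 0.0318 and 0.0996). Without the 2 farthest embryos their r was -0.35, 0.27 and 0.33. Other members in the same hosts had r = -0.08 for Mir362 in Clcn5 and -0.26 for Mir34c in Hoatz. Of the 10 brightest rows, 3 had a host row: Mir185 in Tango2 with r = 0.32, Mir139 in Pde2a with 0.28 and Mir341 in Rian with -0.17. Their adjusted permutation p was 0.745, 0.749 and 0.837.

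The genes of the microRNA pathway itself were measured in 25 rows of 22 genes, and 0 were called between the groups. Dicer1, the enzyme that cuts the hairpin, had 11.1 ± 0.13 (SD, n = 7) in controls and 11.2 ± 0.18 (SD, n = 10) in PJ34 embryos. Drosha, the nuclear enzyme that frees the hairpin, had 10.1 ± 0.30 and 10.4 ± 0.18, a difference of 0.35 (0.11 to 0.59; p = 0.00738, adjusted p = 0.814), and was the 1 row of the list with an unadjusted p below 0.05. Lin28a and Lin28b, which block let-7 maturation, had row means of 8.26 and 8.36. The Argonaute genes differed in brightness, from 5.04 for Ago4 to 8.81 for Ago3. In all, 20 of the 25 rows lay above the olfactory percentile, and the median difference of the list was 0.01 against -0.02 over all rows.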

How the data were processed

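The authors isolated RNA from single embryos, amplified it with the WT-Ovation One-Direct kit and hybridized 1 Affymetrix Mouse Gene 1.0 ST array per embryo. They deposited log2 intensities made by RMA (background correction, quantile normalization and probe summary) in Partek. Software versions and the build behind the probe sets are not given in sources used here. Values were used as deposited, 0 columns belonged to no sample, and groups came from the sample titles. Rows were named through the platform annotation, and names, neighbours and hosts came from a RefSeq table on GRCm38.p6. Quantile normalization makes each array's distribution alike, so a shift shared by most rows would not show. The number of arrays limits precision: the median standard error of a difference was 0.08 log2 units over members and 0.09 over all rows.

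Group and family differences were fitted with limma 3.58.1 in R 4.3.3 on all 21780 rows with 1 symbol, two-sided, with Benjamini-Hochberg adjustment over all of them and a threshold of 0.1, after the study's methods, which name an analysis of variance. The limma steps and the count of high values were tested on simulated data. Correlations and figures used Python 3.11.15, numpy 2.4.6 and matplotlib 3.10.9. Hosts were genes on the same strand that contain the microRNA gene, by their brightest row. Named were all called members, the 5 lowest p in each direction, the 10 brightest rows, the 6 high values with the largest excess, the let-7, miR-302, miR-17-92, miR-290 and miR-34b/c families, and up to 4 host pairs with the lowest p plus those of the brightest rows. Other members, such as Mir181c, Mir23a, Mir30e, Mir204, Mir1a-2, Mir206 and Mir101b, were named after their values were seen. Alternatives were sire as a random block, sire means, array centring, all rows, a filter on dim rows, an intensity trend with a robust prior, plain analysis of variance, other thresholds and leaving out embryos or sires. Members, lists and tests were chosen with earlier results of these data known.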

Additional observations from a re-analysis of the deposited data

Results flagged for a closer look

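In groups of embryos of the named rows, 104 in all, the gap between the most extreme embryo and its nearest neighbour was set against the range of the group (Dixon's ratio, 95% critical value). Chance gives about 1 such gap in 20 groups of rows not chosen for it. In 22 groups the gap was wider, but 6 of these belong to the 10 groups of rows that were named for a large excess in 1 embryo and were chosen for such a gap, and 16 to the other 94. Of the 22, 8 were among controls and 14 among PJ34 embryos, and 20 were at the highest embryo.

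Embryo MTM14-1 stood apart in all 5 rows of the miR-302 cluster, with ratios of 0.704 for Mir302b, 0.599 for Mir302c, 0.938 for Mir302a, 0.855 for Mir302d and 0.950 for Mir367. These rows are neighbours and are not independent. It was also the lowest PJ34 embryo in Mir19a, at 0.527, where all embryos lay between 3.15 and 3.35.

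Control embryo D-1 stood apart in Mir28a at 0.888, Mirlet7d at 0.925, Mir17 at 0.869, Mir18 at 0.948 and Mir106a at 0.625. Control embryo B-2 did so in Mir186 at 0.973 and Mir19b-2 at 0.645, and A-2 was the lowest control in Mir34b at 0.682.

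Among PJ34 embryos, MTM13-3 stood apart in Mir202 at 0.960 and Mir350 at 0.776. MTM11-1 did so in Mir92b at 0.743 and Mir106b at 0.492. The others were Mirlet7f-1 in MTM11-3 at 0.692, Mir186 in MTM13-1 at 0.604, Mir297b in MTM13-2 at 0.478 and Mir128-1 in MTM14-2 at 0.477. The causes of these values were not tested.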

How the results depend on the processing

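The count of 0 members between PJ34 and control embryos was the same under all 30 alternatives. Members with an unadjusted p below 0.05 numbered 8, and 6 to 11 when 1 embryo was left out, 2 when dim rows were dropped (52 members tested) and 5 without sire MTM11. The 10 differences with the lowest p had the same sign under every alternative that gave a value, and none passed, but the size moved over 1.5 times for 5 of them (Mir350, Mir297b, Mir181a-2, Mir337 and Mirlet7f-1). The family comparisons called 0 members in each fit that left out a control embryo or an embryo of MTM11 or MTM13. The high MTM14 rows rested on single embryos, MTM14-1 for the miR-302 genes, Mir204 and Mir1a-2 and MTM14-2 for Mir128-1. Leaving out an embryo of MTM14 left a family of 1 embryo with no spread of its own, so calls from those fits are not given. Rows above the olfactory percentile fell from 48 to 31 at the 99th percentile.

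High values in control and PJ34 embryos were 2.35% and 2.46% at a 1.5-fold threshold and 0.966% in both at 3-fold. Leaving out 1 embryo gave 1.29% to 1.77% in controls and 1.23% to 1.61% in PJ34 embryos. Counting neighbours once, and the miR-302 cluster mean without each embryo (-0.11 to 0.27), were chosen after seeing the data. The called host pair was lost with centred arrays, which left 0. The cause of these changes was not tested. No paired analysis was possible because embryo numbers count within a sire. With no detection p-values, signal over background was judged only against olfactory receptors.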
